A study of Mus musculus with 16 samples.

Results

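Mitochondrial ribosomal proteins were examined in gastrocnemius muscle, a calf muscle, of untreated female C57Bl/6J mice, an inbred strain, at 3, 15, 24 and 29 months of age. The genes were those whose symbol is Mrps or Mrpl followed by a number, which gave 78 genes on 99 probes of an array read in 1 colour (Cy3), with 1 array per sample and 4 samples per age. 1 Mrpl27 probe was dropped because its spots were marked as outliers, and Mrpl21 was not well above background on any array, so 77 of the 78 were among the 21777 genes tested. Of these 21777 entries, 13355 had a RefSeq symbol and the rest were counted under their array names. A probe well above background on all 16 arrays was present for 18899. Shares of all genes tested refer to this mixed set. All 97 probes that remained for these 77 genes were well above background on all 16 arrays. Whether the 4 samples of each age were different animals is not stated in the labels. The p-values therefore describe only sample-to-sample spread, part of which may be technical, and 4 arrays per age limit how precise any value is. The 3- and 15-month arrays lay on slide 1 and the 24- and 29-month arrays on slide 2, so 15 against 3 months and 29 against 24 months were compared within a slide, whereas in the other comparisons slide and age cannot be told apart.

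The mitochondrial ribosome translates the few messenger RNAs of mitochondrial DNA, which encode core subunits of the oxidative phosphorylation complexes. Its RNA comes from mitochondrial DNA, but all of its proteins are encoded in the nucleus, made on cytosolic ribosomes and imported. Some have counterparts in the bacterial ribosome and others are found only in mitochondria. Among the 77 genes tested, 16 encode small subunit proteins with a bacterial counterpart and 10 encode small subunit proteins without one. A further 29 encode large subunit proteins with a bacterial counterpart and 21 encode large subunit proteins without one. Mrps30 and Mrps18a belong to that last group despite their names, since both proteins sit in the large subunit. The remaining gene, Mrps36, kept a ribosomal name although its product is now known as a subunit of the alpha-ketoglutarate dehydrogenase complex.

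Promoter sequence is shown first, because known regulators of nuclear genes for mitochondrial proteins recognise short words there. Whether these words had a part in the values below was not tested. RefSeq windows of build GRCm38.p6, 300 bases long with 250 of them before the start, were found for 69 of the 78 genes (75 windows). The word CCGGAAG, the core bound by ETS factors such as GABP, stood on either strand in 34.7% of these windows, against 8.86% of all 32851 windows. The word GCGCATGC, recognised by nuclear respiratory factor 1, stood in 8 of the 75 windows, against 2.71% of all windows, and AAGATGG, recognised by YY1, in 17.3%, against 6.34%. At least 1 of these 3 words was present in 38 of the 75 windows (50.7%), against 16.6% of all windows. None of the 75 windows held the ETS and YY1 words overlapping. The GC box GGGCGG stood in 52%, against 35.7% of all windows, the E box CACGTG in 9.33%, against 7.15%, and the CCAAT box, read as ATTGG or its reverse complement, in 40%, against 37.4%. The windows of these genes were richer in G and C, with a median of 58.7% against 52.7% over all windows. The ETS word stood in 33.3% of the 75 windows of cytosolic ribosomal protein genes and in 22.7% of the 75 windows of oxidative phosphorylation subunits. The 250 bases before the start are given for Mrpl41, the gene with the largest rise with age. Those of Mrpl42 and Mrps22 follow, which had the lowest changes among genes with a single window. Mrpl33 is added as a gene whose window holds the nuclear respiratory factor 1 and ETS words. Capitals mark matches to any of the 6 words on either strand. They run from chr2:24975099-24975348 (Mrpl41), chr10:95501950-95502199 (Mrpl42) and chr9:98601680-98601929 (Mrps22), all on the minus strand, and from chr5:31613701-31613950 (Mrpl33) on the plus strand.
Mrpl41: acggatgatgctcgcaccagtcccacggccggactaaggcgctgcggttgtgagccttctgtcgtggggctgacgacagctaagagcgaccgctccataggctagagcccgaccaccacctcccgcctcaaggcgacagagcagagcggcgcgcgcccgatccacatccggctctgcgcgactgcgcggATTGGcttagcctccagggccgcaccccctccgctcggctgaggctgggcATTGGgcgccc
Mrpl42: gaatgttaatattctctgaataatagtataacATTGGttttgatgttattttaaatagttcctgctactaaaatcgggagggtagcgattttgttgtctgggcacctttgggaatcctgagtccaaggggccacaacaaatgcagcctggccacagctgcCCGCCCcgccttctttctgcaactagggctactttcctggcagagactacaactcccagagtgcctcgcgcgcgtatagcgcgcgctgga
Mrps22: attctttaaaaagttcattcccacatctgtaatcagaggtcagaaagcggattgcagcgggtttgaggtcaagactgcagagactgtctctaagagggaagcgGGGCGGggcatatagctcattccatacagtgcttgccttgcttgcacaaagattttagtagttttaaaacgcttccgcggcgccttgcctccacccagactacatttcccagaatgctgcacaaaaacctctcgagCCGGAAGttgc
Mrpl33: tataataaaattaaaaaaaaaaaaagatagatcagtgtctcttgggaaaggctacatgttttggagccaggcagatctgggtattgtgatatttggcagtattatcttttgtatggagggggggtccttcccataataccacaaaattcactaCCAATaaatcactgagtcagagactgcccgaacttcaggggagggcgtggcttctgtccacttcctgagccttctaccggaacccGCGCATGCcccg
Before its start Mrpl41 held the CCAAT box alone among the 6 words, at 2 places. Mrpl42 held a GC box and a CCAAT box, Mrps22 an ETS word and a GC box, and Mrpl33 the nuclear respiratory factor 1 word and a CCAAT box. Over the whole 300-base windows, to which the shares above refer, Mrpl42 also held a YY1 word and Mrpl33 an ETS word. The 25 tested genes with an ETS word in a window had a median log2 change at 29 against 3 months of -0.11, and the genes with a window but no such word had -0.08.

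1 array stood apart for this family. On replicate 1 of 29 months, 76 of the 77 genes had the lowest of their 4 values of that age (98.7%, against 42.6% of all genes tested), and for 56 it was the lowest of all 16 arrays. The mean log2 deviation of the 77 genes from their means over the 16 arrays was -0.36 on that array, against 0.17, 0.05 and 0.02 on the other arrays of 29 months. The exception was Mrpl41, which was lowest in replicate 4. Replicate 1 of 29 months also had the highest share of non-control spots well above background among the 16 arrays (60.9%). What part this had in the values was not tested. At 24 months replicate 4 was lowest for 45 genes and replicate 2 for 32, with mean deviations of -0.18 and -0.16, while the other arrays of that age were at 0.05 and 0.07. At 3 months the mean deviations lay between -0.02 and 0.18, and at 15 months between -0.07 and 0.07. The median SD within an age over the 77 genes was 0.12 at 3 months, 0.09 at 15 months, 0.15 at 24 months and 0.26 at 29 months, where the median over all genes was 0.25.

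**Figure D1:**
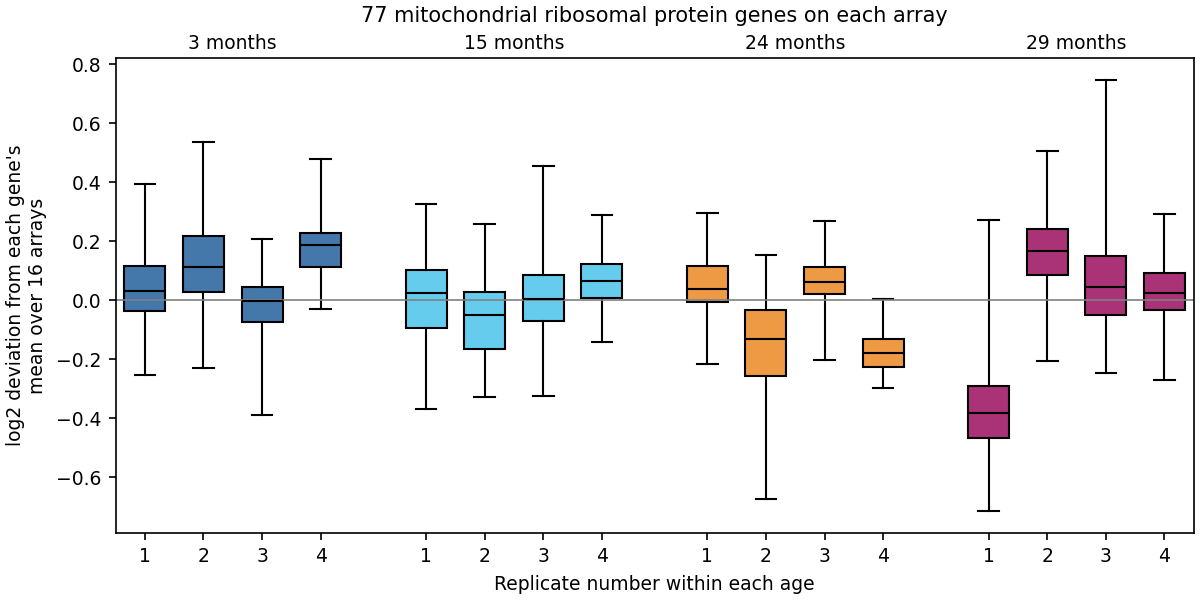
Log2 deviation of each of the 77 mitochondrial ribosomal protein genes from its own mean over the 16 arrays (vertical axis), by replicate within each age (horizontal axis). Boxes span the lower to the upper quartile of the genes with the median as a line, and whiskers reach the lowest and highest gene. The box of replicate 1 of 29 months, with a median deviation of -0.38, lies below all others.

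Other transcripts moved on that array too. The 9 T and NK cell markers, of which 5 were tested, had a mean deviation of 3.00 there (median 1.57, with Ccl5 and Cd2 highest), so that the range of their mean was -0.22 to 3.00 at 29 months, against -0.34 to -0.18 at 3 months. Among their defining markers Cd3d, Cd3g, Cd8a and Gzmb were too dim to be tested. The B and plasma cell markers (4 of 6 tested, without Cd79a and Ms4a1) ranged from -0.51 to 2.90 at 29 months, against -0.84 to -0.46 at 3 months, and replicate 1 again held the top value. All 12 muscle fibre markers, such as Ckm and Acta1, were well above background on all 16 arrays. Their mean deviation was -0.40 on replicate 1 of 29 months and 0.01 to 0.02 on the others of that age. The 82 oxidative phosphorylation subunits were at -0.43 on that array. Mean deviations were taken for markers of other cells too. Those of the 7 fibroblast markers ranged from -1.71 to 0.55 at 29 months (-0.78 on replicate 1), against 0.47 to 1.24 at 3 months, and 3 of these genes were called lower at 29 against 3 months. Means over the 6 endothelial markers ranged from -0.60 to 0.08 at 29 months (-0.44 on replicate 1), against 0.30 to 0.53 at 3 months, with 3 called lower. Over all genes tested, 7.66% were called lower at 29 against 3 months. Without replicate 1 of 29 months 2 genes of each of these lists were called lower, beside 1293 of all 21777 genes. Adipocyte markers (5 of 6 tested, without Lep) ranged from -2.43 to 0.63 at 29 months, against 0.05 to 3.38 at 24 months and -0.78 to -0.18 at 3 months. Macrophage markers (6 of 8 tested, without Cd68 and Cd163) ranged from -0.75 to 0.76 at 29 months, against -0.63 to 0.20 at 3 months. At 24 months replicate 4 had the highest means of adipocyte (3.38), B and plasma cell (2.32), and T and NK cell markers (0.89). Replicate 2 of that age had the lowest means of fibroblast (-2.08), macrophage (-1.35) and endothelial markers (-0.96). The part of these shifts in the results was not tested. In whole muscle, fewer cells of a type and less RNA per cell cannot be told apart. For many of the 29-month values, the value without replicate 1 of 29 months is also given.

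At 29 against 3 months, transcripts of the family were mostly a little lower, and only Mrpl41 passed the test. It was higher (1 of 77), and no gene of the family was called lower, where called means an adjusted p under 0.05 in limma. Over all genes tested, 14.6% were called, 6.99% higher and 7.66% lower. More genes of the family were called lower with other processing, 7 after quantile normalization, 10 after normexp background correction and 7 in the deposited log2 values. In these settings 16.3%, 17.5% and 16% of all genes tested were called in either direction. Of those called genes, 44.5%, 41.8% and 42.9% were higher and the rest lower. An unadjusted p under 0.05 was found for 10 of the 77 (13%), against 28.7% of all genes tested. The median log2 change was -0.11, with 15 genes above 0 and 62 below, beside a median of -0.04 over all genes tested, and single genes ranged from -0.46 to 0.46. Without replicate 1 of 29 months the median was -0.002, with 38 genes above 0 and 39 below, and Mrpl41 was still called (log2 change 0.50, adjusted p = 0.0369). The 95% interval of the change lay within 1.5-fold either way for 67 of the 77 genes.

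**Figure D2:**
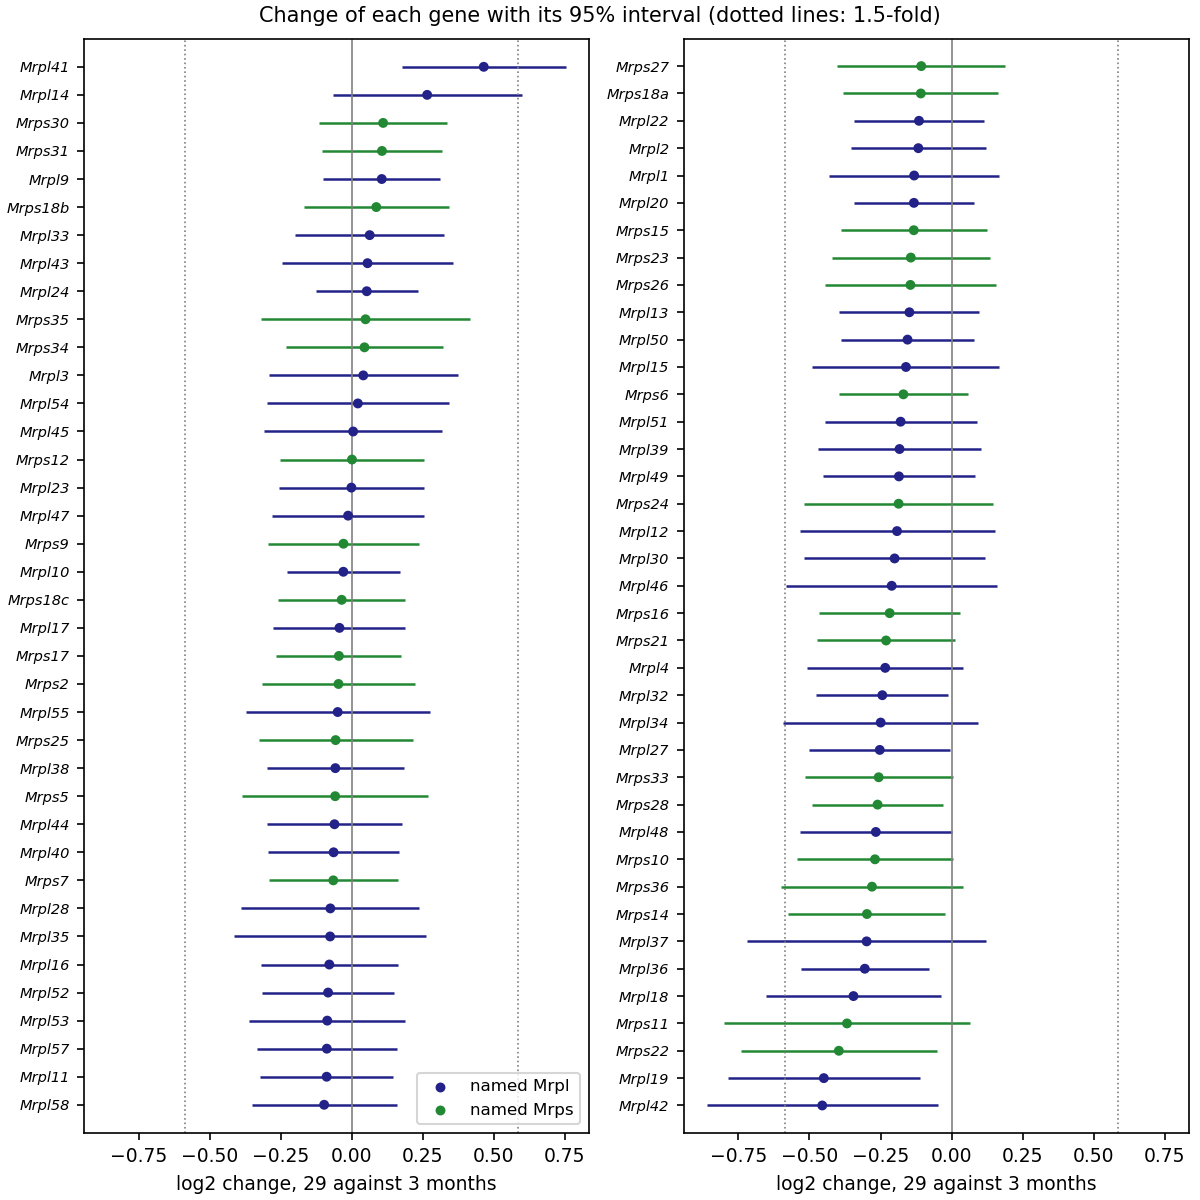
Log2 change at 29 against 3 months (horizontal axis) of each of the 77 genes (rows, ordered by change, continuing from the left panel to the right), with its 95% interval from limma. Dotted lines mark a 1.5-fold change. Mrpl41 lies at the top with 0.46 and Mrpl42 at the bottom with -0.46.

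Mrpl41 encodes a large subunit protein found only in mitochondria, which has been described in human cells as a partner of the survival protein BCL2. Its log2 signal above the array's 75th percentile was 4.72, 4.81, 5.20 and 4.59 on the 29-month arrays, against 4.32, 4.37, 4.21 and 4.56 on the 3-month arrays. Every 29-month array lay above every 3-month array. The means were 4.83 ± 0.26 and 4.37 ± 0.15 (SD, n = 4 each), a 1.38-fold rise with a log2 change of 0.46 (SE 0.14, 95% interval 0.18 to 0.75, adjusted p = 0.032). At 15 months it read 4.08, 4.18, 4.17 and 4.49, and at 24 months 4.52, 4.44, 4.36 and 4.21, so both middle ages overlapped 3 months. Within slide 2 the log2 change at 29 against 24 months was 0.45, the 4 values of 29 months again all higher, but the adjusted p was 0.112. A second Mrpl41 probe had a log2 change at 29 against 3 months of 0.48 (adjusted p = 0.0743 over probes), beside 0.46 (adjusted p = 0.0333) for the probe used. Over 29 other settings the log2 change lay between 0.33 and 0.55 and the adjusted p between 0.0195 and 0.121, and the call was lost in 13. Among these were array median scaling, the deposited log2 values (0.38), and leaving out replicate 2 or 3 of 29 months (0.47 and 0.34) or replicate 1, 2 or 3 of 3 months (0.45, 0.47 and 0.41).

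No other large subunit gene passed the test at 29 against 3 months, and 7 of 48 with an Mrpl name, Mrpl41 among them, had an unadjusted p under 0.05. The median log2 change was -0.11 over the 29 genes with a bacterial counterpart (5 above 0, 24 below) and -0.09 over the 21 without one (5 above 0, 16 below). These medians were -0.003 without replicate 1 of 29 months (14 above 0, 15 below) and 0.008 (11 above 0, 10 below). The lowest was Mrpl42, without a bacterial counterpart, which read 3.51, 4.19, 4.24 and 4.02 at 29 months, against 4.57, 4.74, 4.09 and 4.39 at 3 months. The ages overlapped, and replicate 1 of 29 months lay below all other arrays. The log2 change was -0.46 (SE 0.19, adjusted p = 0.127), and -0.30 without that array. Mrpl19, a bacterial L19 counterpart, read 0.72, 1.26, 0.87 and 0.86 at 29 months, against 1.31, 1.49, 1.12 and 1.59 at 3 months. Only 1 array of 29 months reached the 3-month range, and the log2 change was -0.45 (SE 0.16, adjusted p = 0.0712), or -0.38 without replicate 1 of 29 months. Mrpl18, which is also known for carrying 5S ribosomal RNA towards mitochondria in human cells, had a log2 change of -0.35 (adjusted p = 0.128), or -0.22 without that array, and its ages overlapped. At the upper end, after Mrpl41, Mrpl14 read 6.42, 7.14, 6.76 and 6.96 at 29 months, against 6.52, 6.44, 6.40 and 6.86 at 3 months, with overlap and a log2 change of 0.27 (adjusted p = 0.284), or 0.40 without replicate 1 of 29 months.

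Mrpl12, a stalk protein known to bind the mitochondrial RNA polymerase, had a log2 change of -0.19 at 29 against 3 months (adjusted p = 0.472), or -0.04 without replicate 1 of 29 months. It read 5.06, 5.84, 5.57 and 5.54 at 29 months, against 5.52, 5.82, 5.54 and 5.91 at 3 months, and the ages overlapped. Its lowest step was at 15 against 3 months, within slide 1, with a log2 change of -0.29 (adjusted p = 0.581). Mrpl45, which helps to hold the ribosome at the inner membrane, had a log2 change of 0.005 at 29 against 3 months, with a 95% interval of -0.31 to 0.32, or 0.15 when the same array was left out. Mrpl47 and Mrpl9, both with bacterial counterparts, had log2 changes of -0.01 (Mrpl47, 0.09 without that array) and 0.11 (Mrpl9).

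Among the 29 genes with an Mrps name none was called at 29 against 3 months, and 3 had an unadjusted p under 0.05. The 16 small subunit genes with a bacterial counterpart had a median log2 change of -0.15, with 1 above 0 and 15 below, and the 10 without one had -0.08, with 4 above 0 and 6 below. When replicate 1 of 29 months was left out, these medians were -0.01 (7 above 0, 9 below) and 0.03 (6 above 0, 4 below). Mrps22, a protein found only in mitochondria whose human gene is mutated in an inherited mitochondrial disease, read 1.56, 2.15, 2.11 and 2.05 at 29 months, against 2.34, 2.53, 2.31 and 2.26 at 3 months. All 29-month arrays lay below all 3-month arrays, replicate 1 by far the lowest. Its log2 change was -0.40 (SE 0.16, adjusted p = 0.119), and -0.26 without that array. Mrps11, the bacterial S11 counterpart, averaged 0.868 ± 0.33 at 29 months and 1.24 ± 0.31 at 3 months (SD, n = 4 each). No gene of the family spread more widely at 3 months, the ages overlapped, and the log2 change was -0.37 (adjusted p = 0.251), or -0.21 without replicate 1 of 29 months.

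Mrps12, the counterpart of the bacterial S12 protein of the decoding centre, had a log2 change of 0.001 at 29 against 3 months, with a 95% interval of -0.25 to 0.25. Mrps5, whose counterpart in C. elegans lengthens lifespan when knocked down, read 0.63, 1.24, 1.26 and 1.09 at 29 months, against 1.03, 1.42, 0.85 and 1.15 at 3 months. The ages overlapped, with a log2 change of -0.06 (95% interval -0.39 to 0.27, adjusted p = 0.847), or 0.08 without replicate 1 of 29 months. None of the 3 genes with an Mrps18 name passed the test, of which only Mrps18c was listed with a bacterial counterpart. At 29 against 3 months the log2 change of Mrps18a was -0.11 (adjusted p = 0.627), that of Mrps18b 0.09 (adjusted p = 0.687) and that of Mrps18c -0.04 (adjusted p = 0.865). With replicate 1 of 29 months left out they were 0.008, 0.19 and 0.05 for Mrps18a, Mrps18b and Mrps18c, and that of Mrps12 was 0.07. The highest change with an Mrps name was that of Mrps30, a large subunit protein, at 0.11 (adjusted p = 0.537, 0.19 without that array), followed by Mrps31 at 0.11 (adjusted p = 0.522).

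At 29 against 3 months the arrays of the 2 ages did not overlap for 4 of the 77 genes (5.19%), 1 higher (Mrpl41) and 3 lower (Mrps22, Mrpl36 and Mrps28), against 19.7% of all genes tested. At 24 against 3 months this held for 7 genes, all lower (9.09%, against 14.8%), and at 15 against 3 months for 9, all lower (11.7%, against 12.1%). These comparisons share the 3-month arrays. Mrpl36 and Mrps28 were among the genes without overlap in each of them, and were singled out after their values were seen. Mrpl36, a short protein of the large subunit with a bacterial counterpart, had 4.24, 4.31, 4.23 and 4.30 at 3 months. It read 4.09, 3.95, 4.13 and 4.09 at 15 months, 4.04, 3.91, 4.11 and 3.84 at 24 months, and 3.67, 4.16, 3.96 and 4.08 at 29 months. The 3-month arrays lay close together and above all 12 later ones. The log2 change was -0.31 at 29 against 3 months (adjusted p = 0.0666), -0.29 at 24 against 3 months (adjusted p = 0.127) and -0.21 at 15 against 3 months (adjusted p = 0.521). At 29 against 3 months Mrpl36 was called lower in 4 of 12 other settings, and Mrpl41 was called higher in 5 of those 12. The 4 were quantile normalization, normexp, the deposited log2 values, and trend and robust eBayes. These called 15.4% to 17.5% of all genes tested. Without replicate 1 of 29 months the change of Mrpl36 at 29 against 3 months was -0.21. Mrps28, a small subunit protein, lay between 6.00 and 6.04 at 3 months and at 5.96 or lower on all later arrays, with a log2 change of -0.26 at 29 against 3 months (adjusted p = 0.122), or -0.16 without that array.

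**Figure D3:**
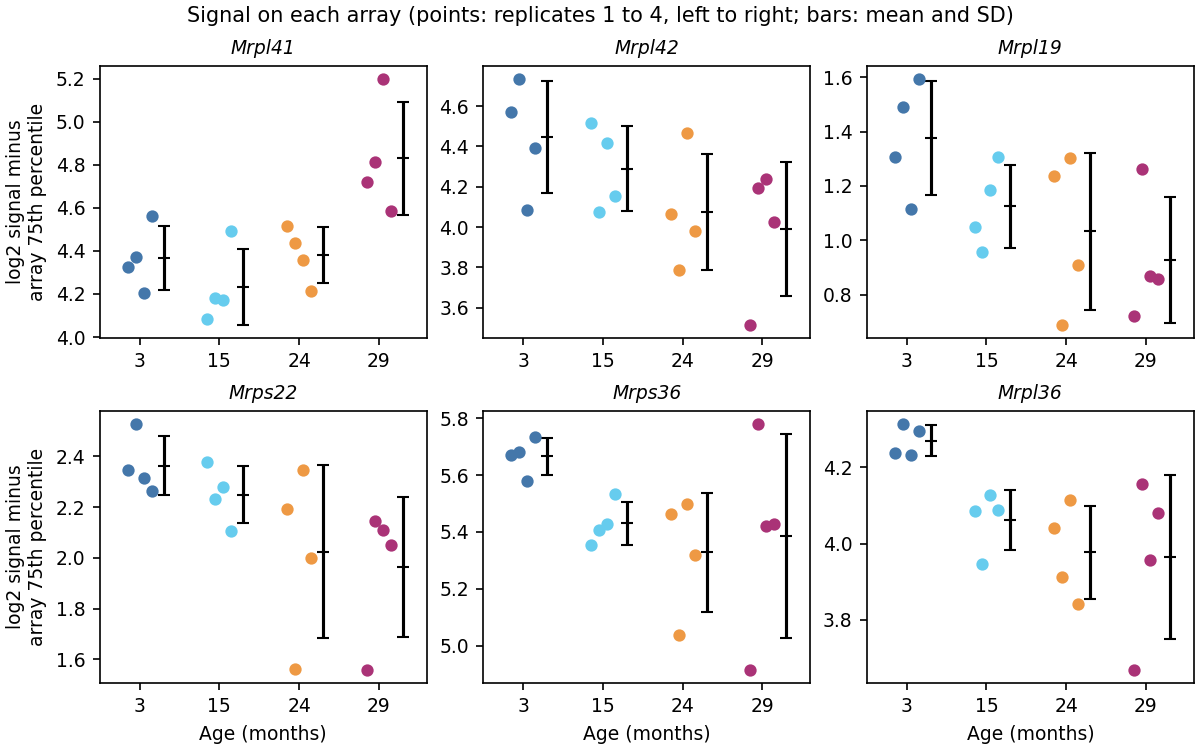
Log2 signal minus the array's 75th percentile (vertical axis, different range in each panel) by age in months (horizontal axis) for 6 genes. Points are single arrays, bars the mean and SD of 4. For Mrpl41 the 29-month arrays lie at 4.59 to 5.20, above all 3-month arrays, and for Mrps22, Mrps36 and Mrpl36 replicate 1 of 29 months is the lowest array or tied for it.

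At 24 against 3 months none of the 77 genes was called in limma, against 4.66% of all genes tested, and 6 had an unadjusted p under 0.05 (7.79%, against 21.2% of all genes). The median log2 change was -0.13, with 8 genes above 0 and 69 below, beside -0.02 over all genes, and single genes ranged from -0.37 (Mrpl42) to 0.14 (Mrpl14). Mrpl19 at -0.34, Mrps22 at -0.34 and Mrps36 at -0.34 followed Mrpl42. The adjusted p of these 4 genes lay between 0.213 and 0.279. At the upper end Mrpl28 was at 0.13, Mrpl10 at 0.08 and Mrps34 at 0.05. The intervals of 69 genes lay within 1.5-fold. Without the 4 arrays of lowest weight in limma (replicates 1 and 3 of 29 months and 2 and 4 of 24 months), a choice made after seeing the data, the median change from 3 months was -0.03 for 24 months and 0.02 for 29 months.

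Mrps36, the dehydrogenase subunit, read 5.46, 5.04, 5.50 and 5.32 at 24 months and 5.35, 5.41, 5.43 and 5.53 at 15 months, against 5.67, 5.68, 5.58 and 5.73 at 3 months. Both ages lay wholly below 3 months. At 29 months it read 4.91, 5.78, 5.42 and 5.43, which overlapped 3 months, with a log2 change of -0.28 (adjusted p = 0.237). Without replicate 1 that change was -0.12.

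At 15 against 3 months, within slide 1, none of the 77 genes was called in limma, against 0.978% of all genes tested. An unadjusted p under 0.05 was found for 1 of them (1.3%), and for 2335 of all 21777 genes. The median log2 change was -0.08, with 20 genes above 0 and 57 below, beside -0.01 over all genes. After Mrpl12, the lowest were Mrpl34 at -0.27, Mrps26 at -0.26 and Mrpl19 at -0.25, and the highest were Mrpl3 at 0.18, Mrpl35 at 0.17, Mrpl28 at 0.14 and Mrps5 at 0.13. The adjusted p of these 8 genes lay between 0.551 and 0.911. The intervals of 74 genes lay within 1.5-fold.

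At 24 against 15 months none was called in limma, against 0.0964% of all genes tested, and none had an unadjusted p under 0.05, against 13.4% of all genes. The median log2 change was -0.06, with 22 genes above 0 and 55 below, beside -0.02 over all genes. The family median was -0.19 after array median scaling, beside -0.15 over all genes. It was -0.02 after quantile normalization, after normexp and in the deposited log2 values, beside -0.02, -0.01 and -0.02 over all genes. Without the 4 arrays of lowest weight it turned to 0.04, with 49 genes above 0 and 28 below. The lowest were Mrps11 at -0.38, Mrpl35 at -0.32, Mrpl3 at -0.29 and Mrps5 at -0.27, and the highest were Mrpl38 at 0.22, Mrps12 at 0.19, Mrpl12 at 0.18 and Mrps2 at 0.16. The adjusted p of these 8 genes lay between 0.391 and 0.627, and the intervals of 72 genes lay within 1.5-fold. The arrays did not overlap for 3 genes, all lower (Mrpl3, Mrpl22 and Mrpl48), which is 3.9% against 9.99% of all genes tested.

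At 29 against 24 months, within slide 2, none of the 77 genes was called in limma, against 1.91% of all genes tested, and 2 had an unadjusted p under 0.05, Mrpl41 and Mrpl9 (2.6%, against 15.3% of all genes). The median log2 change was 0.02, with 45 genes above 0 and 32 below, beside -0.03 over all genes. Its direction depended on the scaling, since it was -0.06 after quantile normalization and 0.14 after array median scaling, which moved the median of all genes to 0.10. Without replicate 1 of 29 months it was 0.13, with 70 genes above 0 and 7 below. Mrpl9, a bacterial L9 counterpart, read 2.95, 2.97, 3.16 and 3.03 at 29 months, against 2.86, 2.84, 2.94 and 2.63 at 24 months. The ages did not overlap, and the log2 change was 0.21 (adjusted p = 0.324). Mrpl41 and Mrpl9 were the genes without overlap (2.6%, against 7.04% of all genes tested). After Mrpl41 the highest were Mrpl47 at 0.23, Mrpl9 at 0.21 and Mrpl52 at 0.18, and Mrpl28 at -0.20, Mrps10 at -0.15, Mrpl18 at -0.13 and Mrpl46 at -0.11 the lowest. The intervals of 76 genes lay within 1.5-fold.

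A linear trend over the ages, fitted together with slide, which rests on the steps within slides, called none of the 77 genes in limma, against 0.634% of all genes tested, and none had an unadjusted p under 0.05, against 10.9% of all genes. The median slope was -0.004 log2 units per month, with 19 genes above 0 and 58 below. Slopes ran from -0.02 in Mrpl12 to 0.02 in Mrpl3.

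Genes that surround the family in the same pathway were read from lists. None of the 5 ribosomal proteins with other names (Dap3, Ptcd3, Chchd1, Aurkaip1 and Gadd45gip1) was called in any comparison, and their median log2 change at 29 against 3 months was -0.10, or 0.04 without replicate 1 of 29 months. The counts of called genes that follow stand beside 14.6% of all genes tested, 7.66% lower and 6.99% higher. Of 19 mitochondrial aminoacyl-tRNA synthetases tested, 1 was called lower at 29 against 3 months. This was Cars2, which charges cysteine, with 0.40, 0.92, 0.70 and 0.86 at 29 months, against 1.15, 1.24, 0.99 and 1.24 at 3 months, a log2 change of -0.43 (adjusted p = 0.0372). Of 13 translation factors 1 was called lower, Mtfmt, which formylates the initiator methionyl-tRNA, at -0.48 (adjusted p = 0.0312). Without replicate 1 of 29 months neither was called, at -0.33 for Cars2 (adjusted p = 0.0924) and -0.46 for Mtfmt (adjusted p = 0.0639). Of 22 genes for ribosome assembly and rRNA modification 1 was called lower, Mettl17, a factor in small subunit assembly. It read -0.56, -0.39, -0.31 and -0.20 at 29 months, against -0.02, 0.24, 0.10 and 0.27 at 3 months, without overlap and with a log2 change of -0.51 (adjusted p = 0.00867), and it was still called without replicate 1 (adjusted p = 0.0227). None of 10 genes for mitochondrial DNA, transcription and mRNA stability was called. Their lowest p belonged to Twnk, the mitochondrial DNA helicase, at -0.37 (adjusted p = 0.0933).

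The 11 transcription regulators of mitochondrial genes included 3 that rose and 1 that fell at 29 against 3 months, against 14.6% of all genes called. Nfe2l2, a regulator of antioxidant genes, rose by a log2 change of 1.17 (adjusted p = 0.000227), Myc, a growth regulator, by 1.29 (adjusted p = 0.00494) and the coactivator Ppargc1a by 0.98 (adjusted p = 0.0109). Its relative Ppargc1b fell, with a log2 change of -1.14 (adjusted p = 0.00968). All 4 were also called without replicate 1 of 29 months. Nfe2l2 and Myc also rose at 29 against 24 months, by 1.04 (adjusted p = 0.00577) and 1.35 (adjusted p = 0.0208). Nrf1, Gabpa and Yy1, whose factors were named above for 3 of the promoter words, did not pass the test at 29 against 3 months. Their log2 changes were -0.08 for Nrf1 (adjusted p = 0.596), 0.12 for Gabpa (adjusted p = 0.575) and 0.08 for Yy1 (adjusted p = 0.821).

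The cytosolic ribosomal proteins, which build the ribosome that translates nuclear messages, and the oxidative phosphorylation subunits encoded in the nucleus were set beside the family. At 29 against 3 months 15 of 78 cytosolic ribosomal protein genes were called higher, against 6.99% of all genes, and none lower, with a median log2 change of 0.19 (73 above 0, 5 below), whereas none of 82 oxidative phosphorylation subunits was called, with a median of -0.16 (7 above 0, 75 below). The mitochondrial family lay between them, at -0.11. Without replicate 1 of 29 months the medians were -0.002 for the mitochondrial ribosomal proteins, 0.23 for the cytosolic ones and -0.05 for the oxidative phosphorylation subunits. At 29 against 24 months the cytosolic median was 0.24, with none called and 49 of 78 (62.8%) at an unadjusted p under 0.05, against 15.3% of all genes. These differences between lists were not tested.

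**Figure D4:**
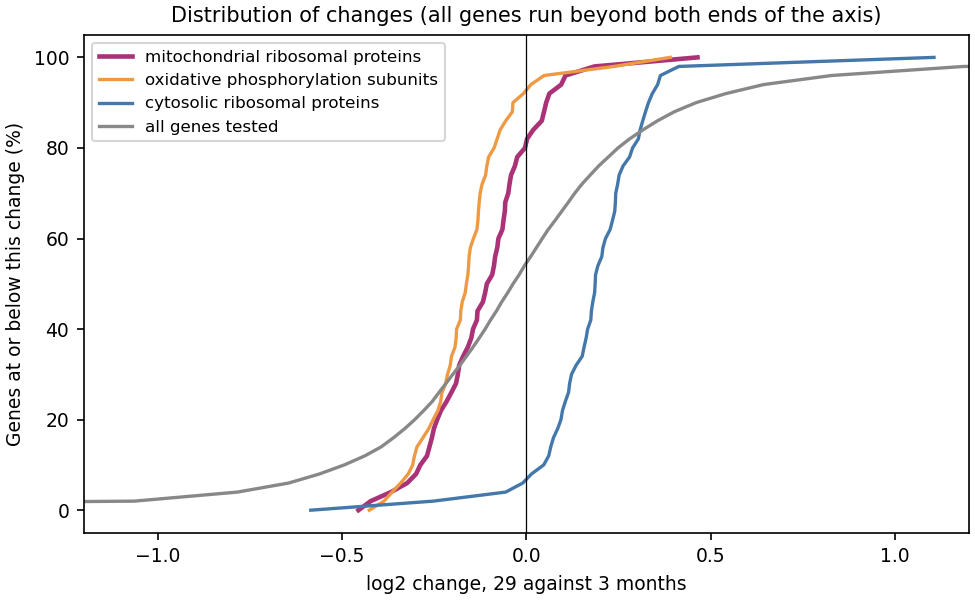
Share of genes at or below a given log2 change at 29 against 3 months (vertical axis, percent; horizontal axis, log2 change) for the mitochondrial ribosomal proteins, the oxidative phosphorylation subunits, the cytosolic ribosomal proteins and all genes tested. The median is -0.11 for the mitochondrial ribosomal proteins, -0.16 for the oxidative phosphorylation subunits and 0.19 for the cytosolic ribosomal proteins.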

How the data were processed

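Per the file headers, spot intensity in the deposited scanner files comes from Feature Extraction 10.7.1.1, background-subtracted but not normalized between arrays. The authors' series table of log2 values has no stated method. Its rows followed the scanner files by feature number (r 0.985 to 0.993 across probes), and it served as an alternative. Between 48.0% (replicate 4 of 29 months) and 60.9% (replicate 1 of 29 months) of non-control spots per array stood well above background, and none was saturated. Each array's 75th percentile was subtracted from its log2 signals. A probe was kept when all 4 arrays of some age were well above background, and the brightest kept probe stood for its gene. Probes were named from the RefSeq table of GRCm38.p6, and those without a match kept their array name. The headers name another build, so the only coordinates given are those of the RefSeq windows.

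Group means of the 4 ages were fitted to the 16 arrays with limma 3.58.1 in R 4.3.3, tested two-sided and adjusted by Benjamini-Hochberg across 21777 genes. The procedure was tested on simulated data. The trend over age had slide as a fixed term. The members, lists, tests and naming rule were chosen with earlier results of these data known. Named were called genes, the 4 highest and 4 lowest changes of each comparison, Mrps5, Mrps12, Mrps36, Mrpl12 and the Mrps18 relatives, and in other lists the called genes and those of smallest p. Mrpl45, Mrpl36, Mrps28 and other genes without overlap were added after their values were seen.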

Additional observations from a re-analysis of the deposited data

Results flagged for a closer look

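Dixon's test was applied at each age to 35 named genes and to the family's mean deviation, which made 144 sets of 4 values. Of these, 4 had an array whose gap to the nearest of the others exceeded Dixon's 95% critical value of 0.829 as a share of the range. Chance alone gives about 1 in 20 such sets. The family's mean deviation was not among the 4 at any age, including 29 months, where replicate 1 lay lowest. For Mrps22 at 29 months the share was 0.835, replicate 1 reading 1.56 and the others 2.05 to 2.15. For Mrpl3 at 24 months it was 0.829, replicate 2 reading 3.36 and the others 3.78 to 3.86, and at 15 months it was 0.95, replicate 4 reading 4.14 and the others 3.96 to 3.97. For Mrpl10 at 3 months it was 0.887, replicate 1 reading 1.89 and the others up to 2.01.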

How the results depend on the processing

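The number of family members called at 29 against 3 months, 1 in limma as reported, depended on the setting. It was 8 after quantile normalization (1 higher, 7 lower), where 16.3% of all genes were called. After normexp on median spot signals with quantile normalization it was 11 (1 higher, 10 lower), with 17.5% of all genes. In the deposited log2 values it was 7 (all lower, of 76 genes), with 16% of all genes. With trend and robust eBayes it was 2 (1 higher, 1 lower), with 15.4% of all genes. It was 0 under array median scaling, with no filter, with only the ages compared, with array weights, with a 1.5-fold minimum and without the 4 arrays of lowest weight. With the replicate number as a block it was also 0, and same-numbered arrays did not deviate together (median r 0.001 over 24 pairs). Leaving out 1 array at a time gave 0 to 4, with 10% to 16.3% of all genes called. The array that gave 4 (Mrpl18, Mrpl19, Mrpl36 and Mrps14, all lower) was replicate 2 of 29 months, without which 12.9% of all genes were called. At 24 against 3 months normexp called 3 genes, all lower. The share of all genes called under normexp in that comparison is not given, and in the main fit it was 4.66%. Array median scaling, which moved the median of all genes to -0.15 in both comparisons with 24 months on top, gave a family median of -0.26 for 24 against 3 months. For 24 against 15 months that scaling gave -0.19, while the fit without the 4 arrays of lowest weight gave 0.0422. Of all genes, 3190 were called at 29 against 3 months, but 1537 under median scaling and 1983 with only the ages compared. Slide as a random block gave no value of its own, since each age lies on 1 slide. With 4 arrays per age, the 95% interval reached, at the median over the family, 0.27 log2 units to either side of the estimate.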
